A study of Mus musculus with 8 samples.

Results

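The Zfp900-series zinc finger genes are mouse genes of the C2H2 zinc finger class whose symbols run from Zfp900 to Zfp999. Members were the protein-coding genes with such a symbol and at least 1 read count in any library, and 58 of 21444 genes with a count met this rule. RNA was measured in sorted primordial germ cells of embryonic day 11.5, the embryonic precursors of eggs and sperm, in 4 Prmt5 KO libraries (Blimp1Cre;Prmt5 flox/flox) and 4 Control libraries (Blimp1Cre;Prmt5 flox/+). Prmt5 encodes an arginine methyltransferase, and the comparison asked how germ cell RNA differs when it is deleted. Both groups carried Blimp1Cre, a Cre driven by the gene for the germ cell determinant Blimp1, and at least 1 floxed Prmt5 allele, so Control cells could also lose a copy. All embryos carried the dPE_Oct4 GFP reporter used to sort the cells and had a mixed C57BL/6 and 129 background. Which strain's alleles each library carried at the loci described here was not analysed. Libraries were built from 50 pg of RNA each by a single-cell protocol and read on a SOLiD sequencer. Whether libraries of the same group shared an embryo is not stated, so every p-value refers only to variation among these 8 libraries, some of which may be technical.

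Most proteins of this kind join a KRAB domain to an array of C2H2 zinc fingers. The fingers bind DNA, and the KRAB domain recruits the corepressor Trim28 and through it the histone methyltransferase Setdb1, which marks chromatin with H3K9 trimethylation. Many silence endogenous retroviruses, and their genes multiply by tandem duplication, so that they lie in clusters of similar copies. Primordial germ cells of this stage are losing DNA methylation across the genome, a mark that holds many retroviruses silent in other cells.

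A KRAB pattern was found in the annotated protein of 54 of the 58 members (93.1%), against 124 of 318 other numbered Zfp genes (39.0%). Zfp953, Zfp956, Zfp972 and Zfp974 had none. Zinc fingers were also counted by a pattern. The members had a median of 11, between 0 in Zfp935 and Zfp972 and 21 in Zfp974, against a median of 10 in the other numbered Zfp genes. Their similarity is visible in the coding sequence itself. The stretches below are 50 bases of the transcripts of Zfp995, on chromosome 17, and Zfp971, on chromosome 2, read 5′ to 3′, with the codons of the linker that joins adjacent fingers in capitals. They are shown because identical stretches occur in other genes.
Zfp995: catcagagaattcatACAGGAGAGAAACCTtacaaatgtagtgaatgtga
Zfp971: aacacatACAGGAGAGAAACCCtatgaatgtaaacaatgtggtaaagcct
The Zfp995 stretch also stood in transcripts of 19 other genes, and the Zfp971 stretch in those of 43 other genes. With the gene itself included, 10 members held the Zfp995 stretch in their counted transcript and 3 the Zfp971 stretch. A read inside such a stretch cannot be assigned to 1 gene by its sequence, and the sources used here do not say how the authors counted such reads. Over the 58 members, the median share of 50-base stretches of the counted transcript that occurred in another gene's transcripts was 21.6%. The share was under 5% in 16 members and over 50% in 14. Counts of the 8 members above 80% are therefore uncertain: Zfp935 reached 100% (its closest partner is the overlapping gene Gm49359), Zfp987 93.1%, Zfp966 89.6%, Zfp973 88.7%, Zfp991 87.0%, Zfp986 86.9%, Zfp993 86.8% and Zfp960 84.5%. At the other end, Zfp949, Zfp950 and Zfp961 shared no such stretch. The counted transcripts of Zfp935, Zfp956, Zfp963 and Zfp984 also overlapped another gene on the same strand over more than 10% of their length, and that of Zfp974 overlapped Gm26891 on the opposite strand.

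Depth was uneven. Total gene counts were 6116071, 5058487, 6549504 and 4318972 in Prmt5 KO 1 to 4, and 5844441, 2289239, 1811428 and 5583550 in Control 1 to 4. A single count was thus worth between 0.149 CPM (read counts scaled to a common total of 1000000) in Prmt5 KO 3 and 0.549 CPM in Control 3. Prmt5 averaged 35.5 ± 6.49 CPM in Prmt5 KO libraries and 138 ± 40.6 CPM in Control libraries (SD, n = 4 each). Its log2 fold change was -1.95 (edgeR's quasi-likelihood test, Benjamini-Hochberg adjusted p = 0.0389), and leaving out single libraries gave adjusted p between 0.0198 and 0.234, under 0.05 only without Control 1. The adjusted p was also 0.157 by limma voom and 0.0631 when counts were summed over transcripts. Germ cell markers were present in every library, with 11 of 11 tested and a summed level of 2880 to 3334 CPM in Prmt5 KO and 2937 to 3277 CPM in Control. Summed levels of 11 somatic markers spanned 175 to 762 CPM in Prmt5 KO, with the highest value in Prmt5 KO 1, and 139 to 217 CPM in Control, and 7 were tested, with 7 higher in Prmt5 KO, a median log2 fold change of 2.30, 0 called and 3 at an unadjusted p under 0.05 (edgeR). These values rested on Prmt5 KO 1: Acta2, a smooth muscle actin, had 208 CPM there, against 2.71 to 5.95 CPM in Prmt5 KO 2 to 4. In the other libraries most of the somatic sum was Mfge8 alone. Mfge8 had 152 to 177 CPM over all Prmt5 KO libraries and 114 to 180 CPM in Control. Without Prmt5 KO 1, a setting chosen after seeing the data, the summed level was 175 to 215 CPM in Prmt5 KO, and of 6 tested somatic markers 3 were higher and 3 lower, with a median log2 fold change of -0.11, 0 called and 0 at an unadjusted p under 0.05 (edgeR). In bulk RNA, a difference in the number of cells of a type and one in the RNA per cell cannot be told apart, here and in the results that follow. Endothelial markers summed to 296 to 416 CPM in Prmt5 KO and 279 to 361 CPM in Control. Most of this was Pecam1, with 215 to 322 CPM in Prmt5 KO and 241 to 345 CPM in Control. Of 3 tested, 1 was higher and 2 lower in Prmt5 KO. By edgeR 0 were called and 1 had an unadjusted p under 0.05. Tek had 72.4, 12.2, 53.7 and 71.0 CPM in Prmt5 KO, against 28.9, 4.46, 7.68 and 8.09 CPM in Control. Blood markers summed to 6.48 to 39.3 CPM in Prmt5 KO and 20.6 to 42.9 CPM in Control, nearly all from Csf1r. Ptprc was at or near 0, and Hbb-bt, Hba-a1 and Hba-a2 were at 0 in every library. Prmt5 KO 4 and Prmt5 KO 1 stood apart from the other libraries in a multidimensional scaling of all tested genes, Prmt5 KO 4 on the first axis (-2.69, against 0.21 to 0.86 in the other libraries) and Prmt5 KO 1 on the second.

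Most members were detected at low levels. Of the 58, 45 had a count in all 8 libraries, 8 in 4 to 7 libraries and 5 in fewer than 4. Between 49 and 55 members were detected per library in Prmt5 KO, and between 51 and 55 in Control. The 5 seen in fewer than 4 libraries were Zfp964 on chromosome 8 and Zfp966, Zfp971, Zfp972 and Zfp973 on chromosome 2. Expressed as CPM per kilobase of exon, the Control mean of the members had a median of 1.88, against 2.04 over 16379 protein-coding genes with a count, and 28 members lay above that value. Levels per kilobase exceeded 10 in 6 members, lay between 1 and 10 in 32 and were under 1 in 20. Even the member with the highest Control level stood only at percentile 82.3 of the protein-coding genes.

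The 6 members with the highest Control levels were Zfp990, Zfp961, Zfp979, Zfp985, Zfp959 and Zfp958. Per kilobase, Zfp990 averaged 11.7 ± 7.13 CPM in Prmt5 KO and 16.1 ± 3.66 CPM in Control, and Zfp961 averaged 7.08 ± 3.34 CPM in Prmt5 KO and 15.1 ± 5.52 CPM in Control (SD, n = 4 each). Zfp979, in which the finger pattern matched 3 times, averaged 18.7 ± 6.98 CPM per kilobase in Prmt5 KO and 14.5 ± 3.59 in Control. Zfp985 averaged 12.8 ± 6.44 CPM per kilobase in Prmt5 KO and 13.2 ± 4.74 in Control, Zfp959 averaged 9.84 ± 4.40 in Prmt5 KO and 10.7 ± 4.62 in Control, and Zfp958 averaged 7.77 ± 9.83 in Prmt5 KO and 10.4 ± 5.30 in Control. Neighbours in this order differed by less than their SD, so the order within the 6 is not resolved. The next member, Zfp944, had 7.39 CPM per kilobase in Control. When levels were divided by the length of the counted transcript in place of all exons, the same 6 members led, with Zfp961 highest at 24.3 CPM per kilobase in Control. Some lower members moved more. Zfp951 went from 2.45 (rank 26) to 8.54 CPM per kilobase (rank 7) in Control, and Zfp930 from 1.44 to 5.66. The medians and counts of members by level use all exons and depend on that choice.

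**Figure D1:**
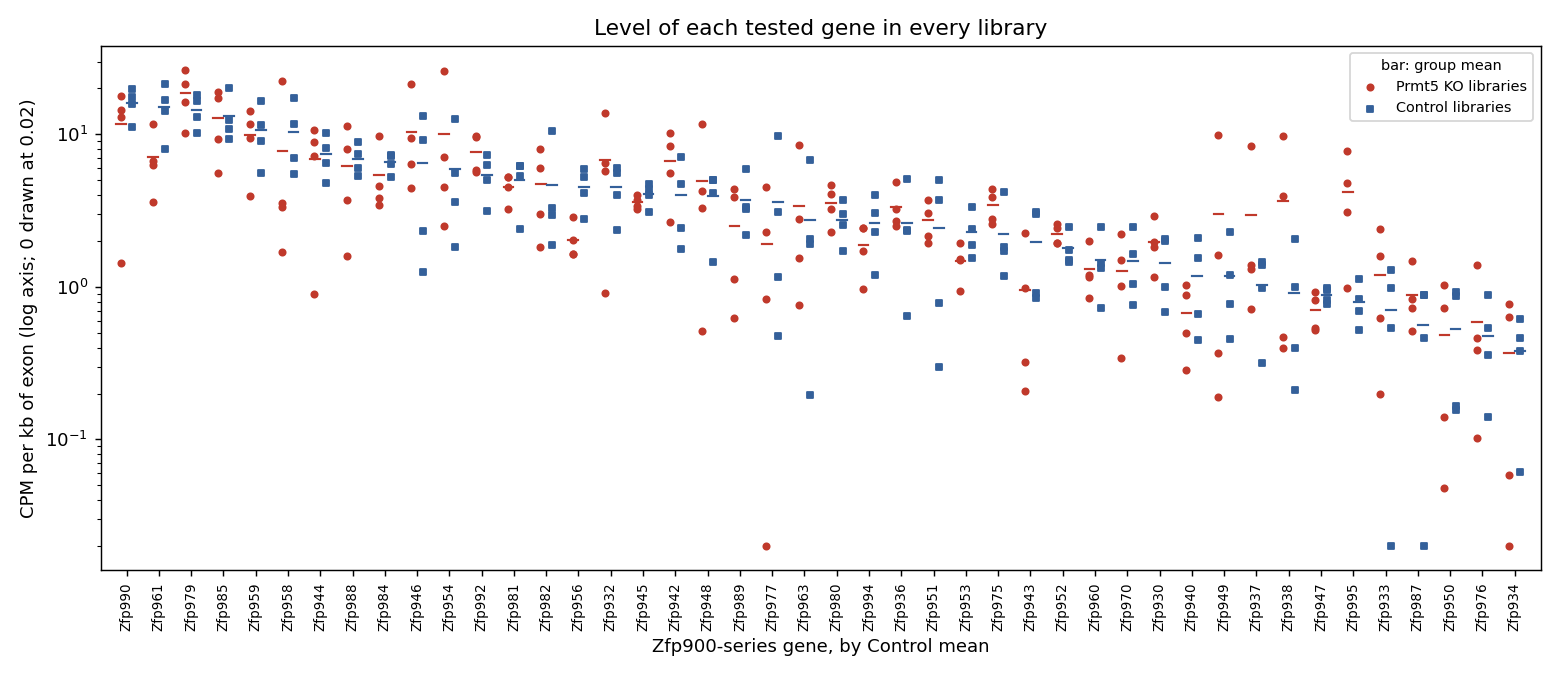
CPM per kilobase of exon (log axis, 0 drawn at 0.02) of the 44 tested members in each library, ordered by Control mean, with Prmt5 KO as circles left of Control as squares and bars for group means. Zfp990, with a Control mean of 16.1 CPM per kilobase, stands first, and the groups overlap in every member.

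The members were unevenly placed in the genome. When neighbouring members no more than 1 Mb apart were joined, 39 of the 58 lay in 5 clusters of at least 3 members, on chromosomes 4, 17, 2, 7 and 8 (GRCm38), and 19 lay outside them. The widest gap inside a cluster was 746 kb, between Zfp973 and Zfp970. The smallest gap above 1 Mb was 1904 kb, between Zfp974 and Zfp940. Zfp935 and Zfp934 on chromosome 13 overlap (gap 0 kb) but were left outside because they form only a pair. With pairs counted, 41 members lay in clusters. Members in clusters shared a median of 26.6% of their 50-base stretches with other genes, and members outside clusters 5.21%.

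The largest cluster, on chromosome 4 from 145510759 to 147848366, held 16 members in 2.34 Mb: Zfp990, Zfp980, Zfp986, Zfp987, Zfp992, Zfp981, Zfp993, Zfp989, Zfp991, Zfp988, Zfp978, Zfp982, Zfp985, Zfp979, Zfp984 and Zfp933. It included 3 of the 6 members with the highest levels, Zfp990, Zfp979 and Zfp985, and its members had a median of 4.17 CPM per kilobase in Control, between 0.345 and 16.1. They also shared most with other genes, at a median of 65.0% of 50-base stretches. Their summed level was 323, 259, 353 and 168 CPM in Prmt5 KO 1 to 4, against 320, 260, 284 and 209 CPM in Control 1 to 4. The ranges overlapped, with the lowest value in Prmt5 KO 4. Among the 12 members tested there, fold changes were above 0 for 6 and below 0 for 6, with a median of -0.02 on the log2 scale.

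The cluster on chromosome 17, from 21567008 to 22867134, held 10 members in 1.30 Mb: Zfp948, Zfp983, Zfp995, Zfp942, Zfp943, Zfp947, Zfp994, Zfp944, Zfp946 and Zfp945. They shared a median of 9.69% of their stretches with other genes. Its members had a median of 3.27 CPM per kilobase in Control. Their summed level was 245, 148, 171 and 119 CPM in Prmt5 KO 1 to 4, against 177, 162.5, 133 and 123 CPM in Control 1 to 4. Prmt5 KO 1 was highest and Prmt5 KO 4 lowest, and the groups overlapped. Zfp945, the member with the highest Control CPM there, had 34.6, 38.0, 40.6 and 33.1 CPM in Prmt5 KO, against 31.6, 44.6, 40.6 and 48.2 CPM in Control. Its log2 fold change was -0.17 ± 0.29 (SE), the smallest standard error of the tested members. Zfp946 had 74.5, 33.3, 22.3 and 15.7 CPM in Prmt5 KO, against 46.5, 32.1, 4.39 and 8.09 CPM in Control, and spanned a wide range in both groups.

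The cluster on chromosome 2, from 175918881 to 178078476, had the lowest levels. Its 6 members shared a median of 51.6% of their stretches with other genes, between 22.2% and 89.6%, and the part of unassigned reads in their low counts was not tested. They had a median of 0.0512 CPM per kilobase in Control, and together they reached 4.56, 6.01, 9.97 and 2.49 CPM in Prmt5 KO 1 to 4, against 5.58, 8.04, 3.29 and 4.22 CPM in Control 1 to 4, most of it from Zfp970 and Zfp931. Zfp970, its only tested member, had 2.20, 4.84, 3.27 and 0.748 CPM in Prmt5 KO, against 3.55, 5.36, 1.65 and 2.29 CPM in Control. Zfp931 had 1.69, 0.969, 6.25 and 1.74 CPM in Prmt5 KO, against 1.52, 2.23, 1.65 and 1.76 CPM in Control. A further 4 annotated genes of the series on this chromosome, Zfp965, Zfp967, Zfp968 and Zfp969, had no count in any library, as did Zfp957 on chromosome 14.

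The cluster on chromosome 7, from 42579783 to 43192109, held 4 members (Zfp977, Zfp976, Zfp975 and Zfp936), and that on chromosome 8, from 69209038 to 69749970, held 3 (Zfp930, Zfp964 and Zfp963). The chromosome 7 members summed to 37.2, 35.1, 27.4 and 27.7 CPM in Prmt5 KO 1 to 4, against 28.2, 42.0, 21.4 and 12.5 CPM in Control 1 to 4. Within it, Zfp975 had 19.6, 17.4, 11.6 and 12.5 CPM in Prmt5 KO, against 8.11, 18.8, 7.68 and 5.28 CPM in Control, so that Control 2 overlapped the Prmt5 KO range. Zfp936 had 15.9, 8.91, 10.6 and 8.22 CPM in Prmt5 KO, against 16.7, 7.59, 7.68 and 2.11 CPM in Control. The chromosome 8 members summed to 25.7, 16.1, 18.9 and 12.2 CPM in Prmt5 KO 1 to 4, against 21.0, 9.38, 14.8 and 15.5 CPM in Control 1 to 4. The groups overlapped in both clusters. Zfp930 had 6.08, 9.50, 15.3 and 10.2 CPM in Prmt5 KO, against 5.24, 3.57, 10.4 and 10.7 CPM in Control. Zfp963 had 19.6, 6.40, 3.57 and 1.74 CPM in Prmt5 KO, against 15.7, 0.446, 4.39 and 4.75 CPM in Control. The sign of the Zfp963 fold change turned when single libraries were left out.

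**Figure D2:**
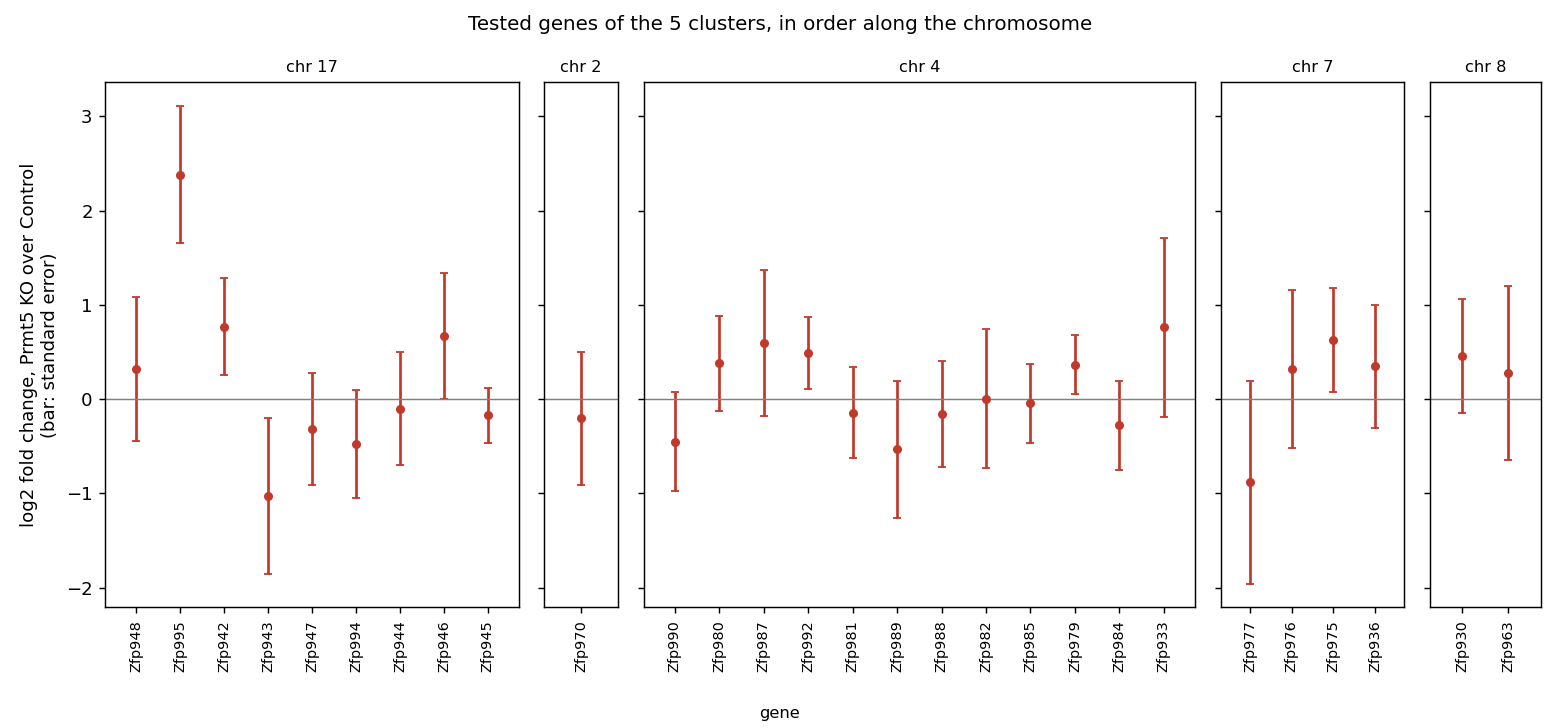
Log2 fold change (Prmt5 KO over Control, edgeR) of the tested members of the 5 clusters in their order along each chromosome, with bars for the standard error. Values on both sides of 0 stand next to each other in the chromosome 4 and 17 clusters, and Zfp995 on chromosome 17 has the highest value, 2.38.

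The low-count filter kept 44 members for testing and left out 14, and the members left out shared a median of 62.1% of their stretches with other genes, against 17.0% in those tested. Of the 14 members above 50%, 7 were not tested. Across the 58 members the Control level per kilobase and the shared share had a Spearman rho of -0.22, given as a description over genes that share libraries and sequence.

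**Figure D3:**
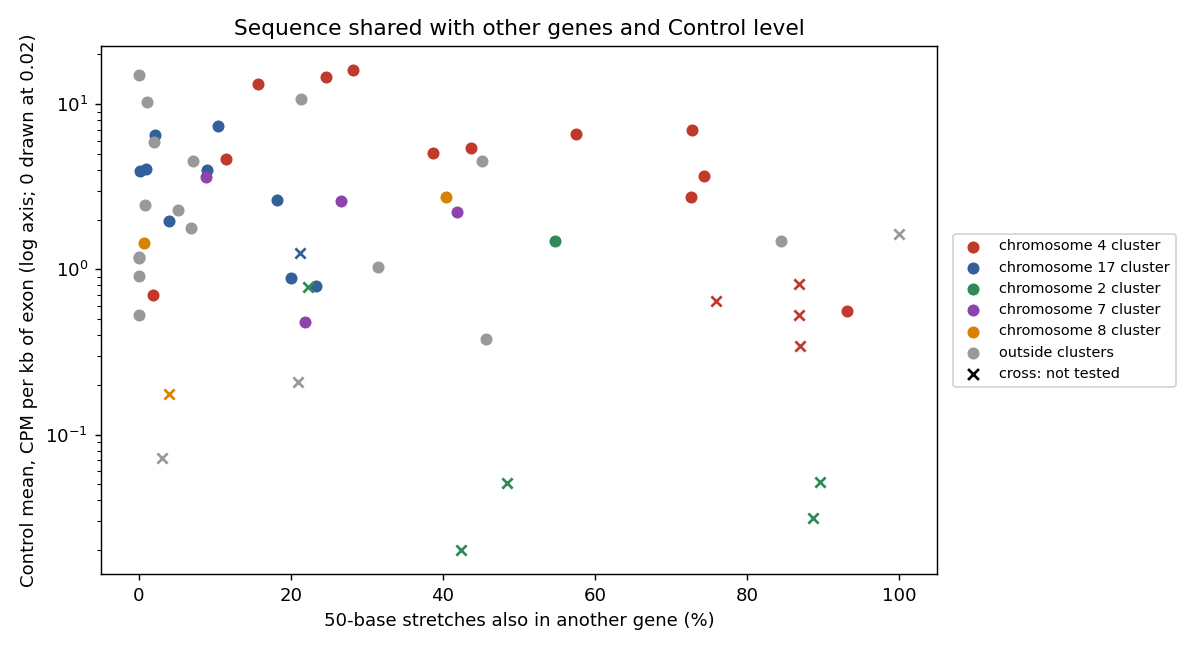
Control mean in CPM per kilobase of exon (log axis, 0 drawn at 0.02) of the 58 members against the percentage of their 50-base stretches found in another gene, coloured by cluster, with dots for tested and crosses for untested members. Tested members have a median shared percentage of 17.0% and untested members one of 62.1%.

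In Prmt5 KO, 0 of the 44 tested members were called at an adjusted p under 0.05 (edgeR, Benjamini-Hochberg over 10990 genes, smallest member adjusted p = 0.409). Over all genes 3 were called, or 0.0273%. At an unadjusted p under 0.05, 2 members passed (4.55%), against 8.15% of all tested genes. DESeq2 called 0 members (3 unadjusted) and 0.974% of all genes, and limma voom called 0 members (3 unadjusted) and 0.0091% of all genes. The direction was even, with 22 members higher and 22 lower in Prmt5 KO, and 52.7% of all tested genes higher. The median log2 fold change was 0.00, beside 0.03 over all tested genes, and the range was -1.14 to 2.38. Groups did not overlap in 0 members in either direction, while 2.63% of all tested genes were higher and 2.27% lower in Prmt5 KO with no overlap.

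Precision was limited. The median standard error of a member's log2 fold change was 0.65, against 0.44 over all tested genes, and the median coefficient of variation of a member was 0.571 in Prmt5 KO and 0.485 in Control, against 0.399 in Prmt5 KO and 0.317 in Control over all tested genes. An absent call therefore does not show that a member's level was the same. Of 240 other numbered Zfp genes that were tested, 126 were higher and 114 lower in Prmt5 KO, with a median log2 fold change of 0.03, 0 called and 9.17% at an unadjusted p under 0.05 (edgeR). Among those with a KRAB pattern, 44 were higher and 52 lower in Prmt5 KO, with a median of -0.07, 0 called and 12 (12.5%) at an unadjusted p under 0.05 (edgeR).

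**Figure D4:**
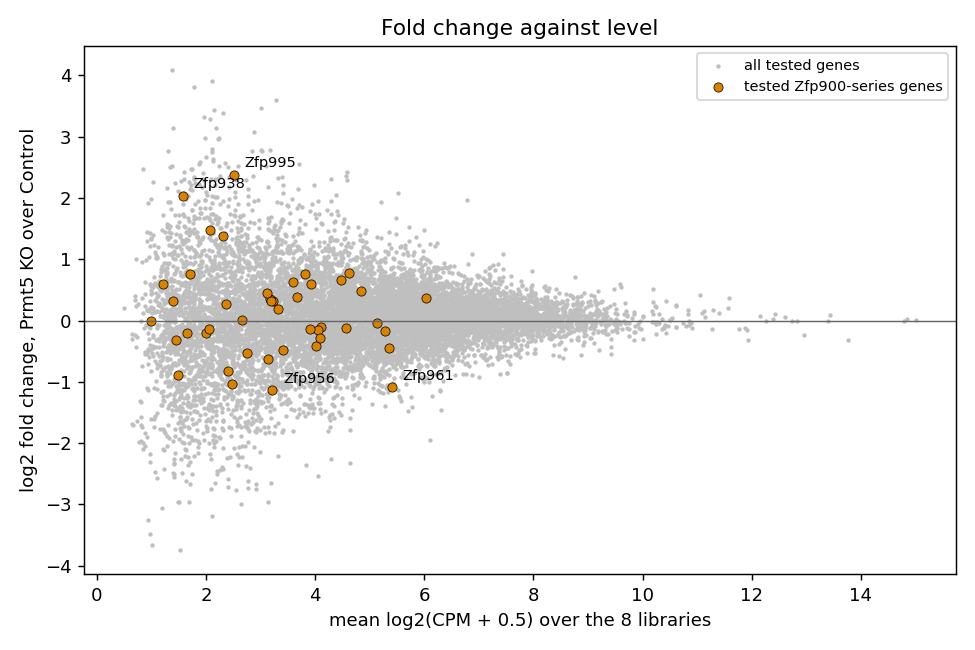
Log2 fold change (Prmt5 KO over Control, edgeR) against the mean of log2(CPM + 0.5) over the 8 libraries, for the 44 tested members (orange) and all 10990 tested genes (grey). The members lie between -1.14 and 2.38, inside the scatter of all genes.

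The share of the library taken by all members together differed between the groups by less than its spread. Members held 0.0824%, 0.0663%, 0.0820% and 0.0472% of gene counts in Prmt5 KO 1 to 4, against 0.0781%, 0.0773%, 0.0668% and 0.0525% in Control 1 to 4. The means were 0.0695 ± 0.0167% in Prmt5 KO and 0.0687 ± 0.0120% in Control (SD, n = 4 each). The lowest library of each group was its replicate 4. Prmt5 KO 4 was the lowest of the 8 libraries for 16 of the 44 tested members (36.4%), against 24.0% of all tested genes, and Control 4 was the lowest for 9 (20.5%), against 10.6%.

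Zfp995, in the chromosome 17 cluster (21879570 to 21909926, minus strand), had the largest fold change. It had 24.7, 9.88, 3.12 and 15.2 CPM in Prmt5 KO 1 to 4, against 2.20, 3.57, 1.65 and 2.64 CPM in Control 1 to 4. All 4 Prmt5 KO values lay above the Control mean, but Prmt5 KO 3 was below Control 2. The means were 13.2 ± 9.09 CPM in Prmt5 KO and 2.51 ± 0.814 CPM in Control (SD, n = 4 each), and the log2 fold change was 2.38 ± 0.73 (SE; edgeR, unadjusted p = 0.00601, Benjamini-Hochberg adjusted p = 0.409). The adjusted p of Zfp995 was 0.0846 by DESeq2 and 0.560 by limma voom. The highest Zfp995 value was in Prmt5 KO 1, the library with the highest somatic marker sum, whose part in the result was not tested. Without Prmt5 KO 1 the log2 fold change was 1.89, and 1.36 without both Prmt5 KO 1 and 4 (edgeR, unadjusted p = 0.122). Zfp995 shared 23.2% of its stretches with other genes, and 12.7% with Zfp947, its closest partner in sequence.

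Zfp961, on chromosome 8 from 71951038 to 71993792 and outside the clusters, had the smallest unadjusted p among the members lower in Prmt5 KO. It had 50.5, 27.3, 29.2 and 15.7 CPM in Prmt5 KO 1 to 4, against 61.4, 92.4, 72.4 and 35.0 CPM in Control 1 to 4. Every Prmt5 KO value was below the Control mean, although Control 4 lay within the Prmt5 KO range. The means were 30.7 ± 14.5 CPM in Prmt5 KO and 65.3 ± 23.9 CPM in Control (SD, n = 4 each), and the log2 fold change was -1.08 ± 0.39 (SE; edgeR, unadjusted p = 0.0168, adjusted p = 0.496). It was -1.63 when counts were summed over its 11 counted transcripts and -0.65 without both Control 2 and 3 (edgeR, unadjusted p = 0.235). Zfp961 shared no 50-base stretch with another gene.

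The promoters of Zfp995 and Zfp961 are shown because these genes had the smallest unadjusted p in each direction and differ in CpG content. Each is the 250 bases before the RefSeq start (GRCm38.p6), on the gene's strand, 5′ to 3′, with CG dinucleotides in capitals: Zfp995 at chr17:21909927-21910176, minus strand, and Zfp961 at chr8:71950816-71951065, plus strand.
Zfp995: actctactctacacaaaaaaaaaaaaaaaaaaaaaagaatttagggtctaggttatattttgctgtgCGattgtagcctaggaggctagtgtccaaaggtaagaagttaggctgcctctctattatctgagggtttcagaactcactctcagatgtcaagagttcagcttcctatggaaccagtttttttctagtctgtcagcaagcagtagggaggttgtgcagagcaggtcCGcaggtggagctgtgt
Zfp961: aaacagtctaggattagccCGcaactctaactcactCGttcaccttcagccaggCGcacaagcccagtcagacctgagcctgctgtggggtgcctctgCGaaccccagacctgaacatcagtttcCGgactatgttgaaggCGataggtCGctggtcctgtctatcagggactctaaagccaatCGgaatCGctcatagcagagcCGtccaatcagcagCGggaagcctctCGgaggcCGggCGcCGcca
The Zfp995 sequence held 2 CG and the Zfp961 sequence 15. Of 49 members found in the RefSeq promoter table, 10 (20.4%) had at least 10 CG in the promoter with most CG. The share was 37.8% over 32851 promoters counted singly, so the measures are not the same, while the median was 6 in both. Zfp982 reached 10 CG only by a promoter with 11 that starts at 147442864, while its others held 3 and 2. The 10 members had a median Control level of 4.59 CPM per kilobase, and the 39 with fewer CG a median of 1.65. Methylation of these promoters was not analysed here.

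Zfp938, Zfp937 and Zfp949 had high values in a few Prmt5 KO libraries. Zfp938, on chromosome 10, had 0.844, 20.7, 8.33 and 0.997 CPM in Prmt5 KO, against 0.845, 0.446, 4.39 and 2.11 CPM in Control (log2 fold change 2.04 ± 1.06, SE). Leaving out single libraries gave Zfp938 log2 fold changes of 0.87 (without Prmt5 KO 2) to 2.68 (without Control 3). The counted transcript of Zfp938 is annotated as subject to nonsense-mediated decay, not as protein-coding. It is 2124 bases long, and all exons of the gene cover 2128 bases. Reads of a coding transcript may therefore be counted in it, which was not tested. Zfp937, on chromosome 2 outside the cluster, had 23.5, 3.68, 3.87 and 1.99 CPM in Prmt5 KO, against 4.06, 0.893, 2.74 and 3.87 CPM in Control. Its fold change rested on Prmt5 KO 1, the library with most somatic marker RNA, and was 0.11 on the log2 scale without it, against 1.47 with it. Zfp949, on chromosome 9, had 1.52, 0.775, 6.70 and 40.6 CPM in Prmt5 KO, against 1.86, 9.38, 4.94 and 3.17 CPM in Control. Without Prmt5 KO 4 its log2 fold change turned to -0.64, against 1.38 with it.

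On the lower side, Zfp956, on chromosome 6, had 4.90, 4.84, 8.48 and 5.98 CPM in Prmt5 KO, against 12.3, 15.6, 17.6 and 8.27 CPM in Control. Only Prmt5 KO 3 and Control 4 overlapped, and the log2 fold change was -1.14 ± 0.56 (SE; edgeR, adjusted p = 0.632). Zfp940 had 3.04, 5.43, 6.25 and 1.74 CPM in Prmt5 KO, against 9.47, 4.02, 2.74 and 12.7 CPM in Control. The counted transcript of Zfp940 is annotated as a retained intron, not as protein-coding. Summed over its transcripts, the log2 fold change of Zfp940 was -0.99. Zfp953, which lacked the KRAB pattern, had 4.39, 9.11, 7.14 and 6.98 CPM in Prmt5 KO, against 11.2, 15.6, 8.78 and 7.21 CPM in Control. The log2 fold changes of Zfp940 and Zfp953 were -0.83 and -0.63, and their groups overlapped.

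Zfp942 and Zfp943, in the chromosome 17 cluster, are transcribed in opposite directions from starts 0.088 kb apart by the gene annotation. The interval between their RefSeq starts, chr17:21962465-21962558 on the plus strand (GRCm38.p6), is shown because both genes begin at it. It held 9 CG, in capitals.
Zfp942 Zfp943 interval: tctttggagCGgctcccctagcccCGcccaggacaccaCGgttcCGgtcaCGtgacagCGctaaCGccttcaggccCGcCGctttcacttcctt
Zfp942 had 53.9, 29.5, 44.2 and 14.0 CPM in Prmt5 KO, against 12.8, 37.5, 24.7 and 9.32 CPM in Control (log2 fold change 0.77 ± 0.52, SE). Zfp943 had 4.73, 1.55, 10.9 and 0.997 CPM in Prmt5 KO, against 14.4, 4.02, 14.8 and 4.40 CPM in Control (log2 fold change -1.03 ± 0.82, SE). Leaving out single libraries gave 0.49 (without Prmt5 KO 1) to 1.21 (without Control 2) for Zfp942, and -0.70 (without Prmt5 KO 4) to -1.92 (without Prmt5 KO 3) for Zfp943. The groups overlapped for both genes, and neither passed the test (edgeR, adjusted p = 0.756 for Zfp942 and 0.793 for Zfp943).

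**Figure D5:**
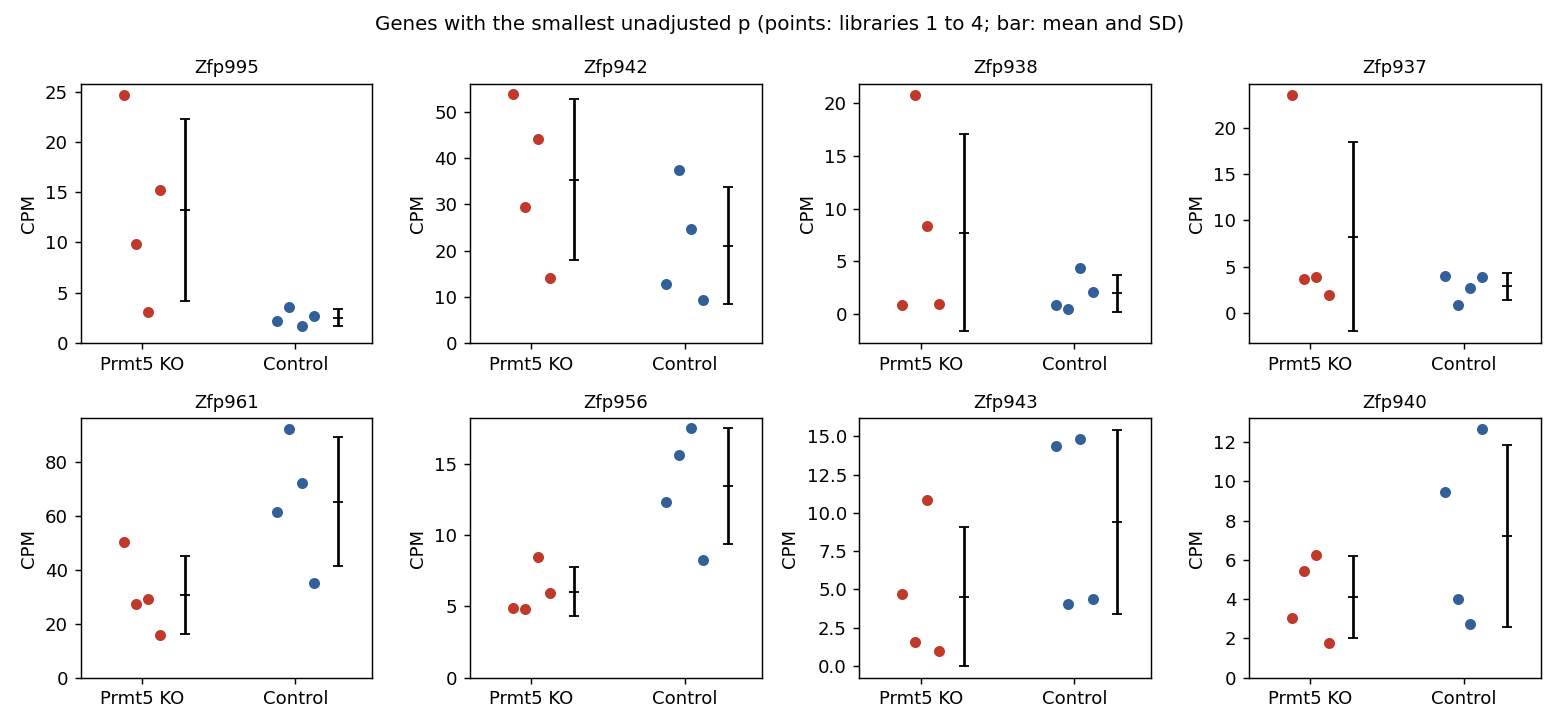
CPM in each library (points, replicates 1 to 4) of the 4 members with the smallest unadjusted p in each direction, with Prmt5 KO left of Control and bars for the mean and SD. Zfp995 spans 3.12 to 24.7 CPM in Prmt5 KO and 1.65 to 3.57 CPM in Control, and the groups overlap in every member shown.

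The members with the highest Control levels did not pass the test either. Zfp979 had 109, 67.4, 88.4 and 42.1 CPM in Prmt5 KO, against 75.0, 53.6, 68.0 and 42.0 CPM in Control, with a log2 fold change of 0.37 ± 0.32 (SE) that was 0.15 without Prmt5 KO 1 and 0.57 without Prmt5 KO 4. Zfp990 had 50.8, 45.3, 62.3 and 4.98 CPM in Prmt5 KO, against 55.4, 61.6, 69.1 and 39.05 CPM in Control, with a log2 fold change of -0.45. Prmt5 KO 4 was far below the other 7 libraries for Zfp990, and without it the log2 fold change was -0.083. Zfp985 had 54.5, 26.7, 50.0 and 15.95 CPM in Prmt5 KO, against 57.5, 26.8, 31.3 and 35.7 CPM in Control, with a log2 fold change of -0.04. Zfp959 had 28.5, 35.1, 23.1 and 9.72 CPM in Prmt5 KO, against 22.1, 40.6, 13.7 and 28.1 CPM in Control, with a log2 fold change of -0.12. Zfp958 had 8.44, 7.95, 53.1 and 3.99 CPM in Prmt5 KO, against 40.7, 27.7, 16.5 and 13.0 CPM in Control, so that 3 Prmt5 KO libraries lay below every Control library and 1 above. Its log2 fold change was -0.41, and -1.84 without Prmt5 KO 3 (edgeR, adjusted p = 0.418).

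Among members with too few counts for the test, Zfp983 had 0.675, 1.36, 1.34 and 0 CPM in Prmt5 KO, against 8.11, 5.80, 7.13 and 0.880 CPM in Control. Control 4 lay within the Prmt5 KO range, and with no filter on low counts its log2 fold change was -2.59 (edgeR, adjusted p = 0.474). Zfp935 had 1.86, 0.581, 1.19 and 1.25 CPM in Prmt5 KO, against 1.52, 1.79, 6.03 and 1.41 CPM in Control. Zfp935 shared 99.2% of its stretches with Gm49359, which had a total count of 0, so sequence can hardly separate this pair. The other untested members were Zfp931, Zfp941, Zfp964, Zfp966, Zfp971, Zfp972, Zfp973, Zfp974, Zfp978, Zfp986, Zfp991 and Zfp993. A further 21 members were tested and had log2 fold changes between -0.88 (Zfp977) and 0.76 (Zfp933), 10 above 0 and 11 below, with adjusted p between 0.791 and 1.00 (edgeR).

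The genes through which KRAB zinc finger proteins act, and related repressors, were also examined. A list of 31 names was used, in which Fam208a and Tasor are the same gene, and 30 had a count. It also holds KRAB zinc finger genes, of which Zfp809, Gm15446 and the member Zfp932 were tested and higher in Prmt5 KO. Of the list, 26 were tested, with 20 higher and 6 lower in Prmt5 KO. Their median log2 fold change was 0.25, and 0 were called by edgeR. At an unadjusted p under 0.05, 2 of the 26 passed (7.69%, near the 8.15% of all tested genes). Of the 26, 76.9% were higher in Prmt5 KO, against 52.7% of all tested genes. Trim28, the corepressor, averaged 1134 ± 96.6 CPM in Prmt5 KO and 1320 ± 143 CPM in Control (SD, n = 4 each; log2 fold change -0.22, edgeR adjusted p = 0.671). Setdb1, the methyltransferase, averaged 141 ± 20.3 CPM in Prmt5 KO and 137 ± 23.0 CPM in Control (SD, n = 4 each). The smallest unadjusted p belonged to Morc3, a chromatin ATPase, and Mga, a transcriptional repressor, on the higher side and to Cbx1, an H3K9 methylation reader, on the lower side. Morc3 averaged 112 ± 35.1 CPM in Prmt5 KO and 62.0 ± 22.6 CPM in Control, Mga 81.6 ± 18.3 CPM in Prmt5 KO and 56.1 ± 7.28 CPM in Control, and Cbx1 85.0 ± 9.92 CPM in Prmt5 KO and 139 ± 35.5 CPM in Control (SD, n = 4 each). Their adjusted p were 0.486, 0.614 and 0.409 (edgeR). Zfp932, a member known in mouse to silence endogenous retroviruses together with its close relative Gm15446, had 45.1, 21.3, 18.9 and 2.99 CPM in Prmt5 KO, against 13.2, 18.3, 19.7 and 7.74 CPM in Control. It shared 42.6% of its stretches with Gm15446, so reads of this pair may be mixed, and its log2 fold change of 0.60 ± 0.65 (SE) was smaller than its error.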

How the data were processed

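Read counts per transcript were deposited by the authors, 1 file per library, as whole numbers with transcripts of 0 left out. The submitters' processing notes name GRCm38 and mm10; the aligner, counter, strand setting and read length do not appear there. Transcripts were matched to GENCODE vM21 on GRCm38 (64258 of 66262), and each gene took the value of its transcript with most counts summed over all 8 libraries, since 1132 of 6532 genes with at least 2 well-counted transcripts had transcripts with identical counts. The design had assumed gene counts. In 6 members the counted transcript was not of protein-coding type: Zfp938, Zfp940, Zfp950, Zfp952, Zfp974 and Zfp976. Unmatched identifiers held 1.75% to 1.90% of the counts.

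Counts were filtered (minimum count 10, minimum total 15), scaled by TMM and tested over 10990 genes with edgeR 4.0.16 (quasi-likelihood, robust, R 4.3.3), with Benjamini-Hochberg adjustment at 0.05. DESeq2 1.42.0, limma 3.58.1 voom, other scalings, no filter, sums over transcripts, a replicate block and leaving out libraries were alternatives. The scripts were tested on simulated counts. Python 3.11.15, pandas 2.3.3, Biopython 1.88 and matplotlib 3.10.9 were used for sequences and figures. CPM used TMM-scaled library sizes, and levels were divided by the exon length of the gene.

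Shared stretches were 50-base words of the counted transcript found in transcripts of another gene on either strand; words of 35 bases gave a median of 33.8%. KRAB and finger patterns were counted in translations of the annotated coding sequences. Promoters came from RefSeq (GRCm38.p6). The members and lists were chosen with earlier results of these data known, so the gene counts are descriptions. Members given with values were the 5 per direction with the smallest unadjusted p, the 6 with the highest Control level per kilobase, the 2 with the highest Control CPM in each cluster and the 3 untested members with most counts, beside Prmt5 and the pathway genes with the smallest p. Zfp932, Zfp977, Zfp933 and the members named for shared sequence or position were chosen after their values were seen. P-values and intervals cover the spread of these libraries; reads carried no molecular identifiers. Replicate numbers were not treated as pairs.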

Additional observations from a re-analysis of the deposited data

Results flagged for a closer look

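A search of 76 sets of 4 libraries, each within a group, covered only part of the members and pathway genes. Of these sets, 6 held a library far from the other 3, where chance gives about 1 in 20, or 3.8. The sets share libraries. In Prmt5 KO, Zfp937 was high in Prmt5 KO 1 (23.5 CPM), Zfp949 in Prmt5 KO 4 (40.6 CPM), Zfp958 in Prmt5 KO 3 (53.1 CPM) and Zfp931 in Prmt5 KO 3 (6.25 CPM), and Trim28 was high in Prmt5 KO 4 (1278 CPM). In Control, Zfp935 was high in Control 3 (6.03 CPM). Of the 6, 5 lay in Prmt5 KO, with Prmt5 KO 3 and Prmt5 KO 4 outlying for more than 1 gene among the sets searched. Genes that were not flagged also held such values. Hdac2 was low in Prmt5 KO 1 (148 CPM, against 317 to 336 CPM in Prmt5 KO 2 to 4). Among Control libraries, Zfp964 had counts only in Control 2 (5.36 CPM).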

How the results depend on the processing

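Members called by an adjusted p numbered 0 under every alternative run. Over all genes, where 3 were called, DESeq2 called 107, no filter 7, and limma voom, the replicate block, the sum over transcripts and leaving out both Prmt5 KO 1 and 4 each 1, while leaving out both Control 2 and 3 gave 0 and leaving out single libraries 1 to 2. Members with an unadjusted p under 0.05 (2) numbered 4 with no filter and 4 with the sum over transcripts, and 2 to 5 without single libraries. Same-numbered libraries of the groups deviated together with correlations of 0.0023 to 0.069, so the numbers were not read as pairs, and 3 of 4 correlated best with their own number; with the replicate block 0 members were called and the median member fold change was -0.07.

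Fold changes turned sign for some genes, and the cause was not tested. Without single libraries, log2 values ranged from -0.72 to 1.27 for Zfp963, -0.29 to 0.24 for Zfp985, -0.64 to 1.93 for Zfp949, -0.35 to 0.17 for Zfp959, -0.60 to 0.13 for Zfp970 and -0.064 to 0.14 for Setdb1, which was -0.0011 with upper-quartile scaling. Without both Prmt5 KO 1 and 4 they were 0.013 for Zfp985, 0.15 for Zfp959, 0.32 for Zfp958, 0.34 for Zfp970, -0.32 for Zfp949 and -0.39 for Zfp963, and without both Control 2 and 3 -0.38 for Zfp963. Of 396 member values under the alternatives, 17 changed sign. The median member fold change ranged from -0.21 to 0.24 without single libraries. With the replicate block, Prmt5 itself was not called (edgeR, adjusted p = 0.130), and Zfp938 had a log2 fold change of 1.02. With 1811428 to 6549504 counts per library, low members rest on few reads.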

Other observations

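Zfp942 and Zfp943, the head-to-head pair, were compared by their ratio, a comparison chosen after their values were seen. Zfp942 counts were 11.4, 19, 4.07 and 14 times those of Zfp943 in Prmt5 KO 1 to 4, against 0.894, 9.33, 1.67 and 2.12 times in Control 1 to 4. The mean log2 ratio was 3.40 ± 0.96 in Prmt5 KO and 1.22 ± 1.43 in Control (SD, n = 4 each), a difference of 2.18, given as a description. A two-sided exact permutation test over 70 assignments gave p = 0.0571 (smallest possible 0.0286), which supports nothing here because the pair was picked on the values of the same libraries. The ratios overlapped, since Control 2 lay above Prmt5 KO 3.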
